A study of Mus musculus with 9 samples.

Results

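The astrocyte transporters, channels and gap junction genes described here, 8 of the 32287 genes in the count matrices, were followed through the cells of the ventricular-subventricular zone (vSVZ), the neurogenic niche along the lateral ventricles, and of RoB, a pool of olfactory bulb, rostral migratory stream and striatum. They were chosen by function. Slc1a2 (GLT-1) and Slc1a3 (GLAST) encode the glutamate transporters of astrocytes, Slc6a11 the GABA transporter GAT3 and Glul glutamine synthetase, which turns glutamate into glutamine. Kcnj10 encodes the inwardly rectifying potassium channel Kir4.1, Aqp4 the water channel aquaporin-4, and Gja1 and Gjb6 the connexins 43 and 30.

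As background, astrocytes clear transmitter and potassium released by neurons, and spread ions, water and metabolites through a network of cells coupled by gap junctions. Uptake by the glutamate transporters ends excitatory signals, and glutamine synthetase returns the amino acid to neurons as glutamine. The neural stem cells of the vSVZ are themselves glia that share many of these genes, whereas ensheathing glia, which wrap olfactory axons, come from another lineage.

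Single cells were profiled from male TiCY mice, a C57BL/6 line in which Cre-ERT2 under Nr2e1 (Tlx) sequences marks stem cells and their progeny with eYFP after tamoxifen, on a background that in all animals also carried the Fas tm1Cgn allele. WT mice had intact interferon receptors, and KO mice carried the Ifnar1 tm1Agt and Ifngr1 tm1Agt alleles, which remove the receptors for type I and type II interferon. WT young mice were 16 weeks old (tamoxifen at 10 weeks, 6 weeks of chase), KO young mice 16 weeks (tamoxifen at 7 weeks, 9 weeks of chase), WT old mice 80 weeks (tamoxifen at 71 weeks, 9 weeks of chase) and KO old mice 92 to 105 weeks (tamoxifen at 85 and 98 weeks, 9 weeks of chase), for which the stated ages are lower than tamoxifen age and chase add up to. Each of the 4 groups was 1 sequenced reaction of 2 mice, whose mouse and tissue were read from 4 hashtag antibodies, so group and reaction cannot be told apart. The age comparison in WT also spans 2 chase times, and so does the genotype comparison in young mice.

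Sorting bears on the genes described here. From the vSVZ, cells positive for eYFP and cells positive for GLAST, the protein of Slc1a3, were collected, and from RoB eYFP-positive cells and eYFP-negative cells low in PSA-NCAM. Cells bearing CD45, Ter119 or O4 were sorted away. The share of cells of a type is therefore set partly by the gates. The level of Slc1a3 may also depend on the selection of its protein, which was not tested.

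The 4 libraries held 27096070 to 78028524 UMIs (unique molecular identifiers, 1 per captured transcript), and 18055 cells were kept, 2396 to 6461 per library, with a median of 5026 to 7393 UMIs per cell. WT young was the shallowest library per cell. A mouse could be called for 20.5 to 60.4% of the cells of a library, and 30 barcode sequences occurred in more than 1 library. The median number of hashtag counts per cell was only 5 to 7 per library. Across all cells Ifngr1, the targeted receptor gene with the clearer difference, had 46.9 (young) and 85.4 (old) CPM, UMIs of a gene per 1000000 UMIs of the summed cells, with WT and 2.88 (young) and 4.40 (old) with KO. Ifnar1 stood at 21.2 and 28.6 in WT and 8.08 and 6.56 in KO, though 3′ tags can lie outside a deleted part.

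Promoter windows, the 250 bases before the start, were found for 7 of the 8 genes in RefSeq (GRCm38.p6). Windows of 4 genes are shown, those of Slc6a11 and Kcnj10 because they differed most between the tissues below, and those of Gja1 and Gjb6 because they are the connexin pair. They lie at chr6:114130991-114131240 (plus strand), chr1:172340960-172341209 (plus), chr10:56377050-56377299 (plus) and chr14:57133612-57133861 (minus). Capitals mark the GC box GGGCGG on either strand.
Slc6a11: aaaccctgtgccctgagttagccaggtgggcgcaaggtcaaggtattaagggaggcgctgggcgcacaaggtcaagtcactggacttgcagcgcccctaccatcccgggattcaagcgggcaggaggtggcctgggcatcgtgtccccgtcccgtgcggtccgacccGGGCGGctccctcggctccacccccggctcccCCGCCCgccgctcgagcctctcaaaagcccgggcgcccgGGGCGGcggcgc
Kcnj10: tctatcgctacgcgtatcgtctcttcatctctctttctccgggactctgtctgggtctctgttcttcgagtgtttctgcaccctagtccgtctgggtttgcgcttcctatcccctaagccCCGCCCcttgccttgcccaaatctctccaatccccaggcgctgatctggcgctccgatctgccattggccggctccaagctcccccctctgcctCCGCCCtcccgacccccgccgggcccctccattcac
Gja1: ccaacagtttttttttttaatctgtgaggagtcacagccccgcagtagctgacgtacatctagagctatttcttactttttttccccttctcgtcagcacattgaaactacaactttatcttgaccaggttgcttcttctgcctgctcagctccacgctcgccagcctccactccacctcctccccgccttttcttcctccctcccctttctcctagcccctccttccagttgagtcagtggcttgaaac
Gjb6: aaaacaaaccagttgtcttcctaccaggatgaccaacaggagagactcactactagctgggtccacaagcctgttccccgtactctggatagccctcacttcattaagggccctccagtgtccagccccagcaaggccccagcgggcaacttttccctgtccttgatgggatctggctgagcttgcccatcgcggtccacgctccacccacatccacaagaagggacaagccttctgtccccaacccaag

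The GC box occurred 3 times in the Slc6a11 window, 2 times in the Kcnj10 window and not at all in the windows of the connexins. It was also present in the windows of Glul and Slc1a3, which made 4 of 7 windows against 32.7% of all 32851 windows in the table. The letters TATAAA on either strand, found in 12.4% of all windows, occurred only in the Slc1a3 window among the 7. The letters TTCNNNGAA of the gamma-activated site, found in 7.02% of all windows, likewise occurred only in that of Slc1a3. The letters GAAA repeated once after a gap of 2 bases, the core of the interferon-stimulated response element, were found on either strand in 2.98% of all windows and in that of Glul alone among the 7. The Slc1a2 window lies 47779 bases inside the GENCODE gene and belongs to a shorter transcript. A match here is a description of letters and not of a bound site.

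In the GRCm38 genome of the files (GENCODE vM21 annotation) the genes lie on 7 chromosomes. Slc1a2 spans 102658659 to 102790784 on chromosome 2, Slc1a3 8634124 to 8710764 on chromosome 15, Slc6a11 114131241 to 114249952 on chromosome 6 and Glul 153899944 to 153909723 on chromosome 1. Kcnj10 spans 172341210 to 172374085 on chromosome 1, Aqp4 15389496 to 15410982 on chromosome 18, Gja1 56377330 to 56402513 on chromosome 10 and Gjb6 57123303 to 57133611 on chromosome 14. An antisense gene overlaps Slc1a2 (Gm13872) and Aqp4 (AC133525.2), and a gene on the same strand overlaps Slc1a3 (Gm37310) and Glul (Mir8114), and whether counting kept reads of overlapping genes apart is not given in the sources used here. CPM values count 3′ ends, so they are compared between cells and not between genes.

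To ask in which cells the genes are used, levels were summed per cell type and library. Clusters were made without the 8 genes and without the wider transporter lists, and types are described rather than tested. The cluster rich in Thbs4 and Ecel1 (1032 cells, 93.4% of those with a tissue call from the vSVZ) is called stem cells here after the rule that chose it. Its fixed stem and astrocyte markers, 10 of 10 above 10 CPM, are shared with astrocytes, so the pair of leading genes alone does not prove stem cell identity. eYFP was detected in 50.6% of these cells and in 5.94% of the largest astrocyte cluster (2509 cells). By library the share of stem cells with eYFP was 57.65% in WT young, 56.5% in KO young, 14.3% in WT old and 33.8% in KO old. The other clusters of the same class are named by their leading genes, of which the Crym-rich (1351 cells) were mostly from the vSVZ and the Igfbp2-rich (228 cells) and Islr-rich (145 cells) almost all from RoB. Activated cells (408) are activated NSC-like by their markers, and ensheathing glia (1747 cells in the main cluster) are likewise named by markers.

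Of the 8 genes, 6 were lower in stem cells than in the largest astrocyte cluster, and Slc1a2 and Kcnj10 were not set apart from it. Per library, stem cells held Slc1a2 at 8939.6 ± 2009.6 CPM (SD, n = 4 libraries, here and below) against 10064 ± 976 in the largest astrocyte cluster, and the libraries of both overlapped. Kcnj10 also overlapped, at 102 ± 23.2 CPM in stem cells and 103 ± 18.9 in that cluster. The other 6 genes were lower in the stem cells of every library than in the largest astrocyte cluster of any library. The share of all genes lower in this way is not given here, so the count is a description. The same 6 were lower without overlap when only cells of at least 2000 UMIs were used. They were also lower without overlap when predicted doublets were kept and when the 8 genes took part in the clustering. In those clusterings the largest astrocyte cluster (3173 and 2914 cells) was led by Crym, so partly other cells were compared. The difference does not hold against every astrocyte cluster. Gjb6 (74.4 ± 19.6 CPM), Glul (2132 ± 148 CPM) and Gja1 (114 ± 32.8 CPM) in Islr-rich cells overlapped the stem cells. So did Slc1a3 (2338 ± 199 CPM), Glul (1757 ± 216 CPM) and Gja1 (124 ± 42.8 CPM) in Grin2c-rich cells, in 3 libraries. Slc1a2 was higher in the stem cells of every library than in any library of the Igfbp2-rich (5974 ± 396 CPM) or Islr-rich cells (2898 ± 366 CPM). Kcnj10 in Islr-rich cells (336 ± 90.8 CPM) lay above the stem cells of every library.

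The water channel showed the widest gap of the 8. Aqp4 stood at 113 ± 14.6 CPM in stem cells and at 853 ± 54.9 in the largest astrocyte cluster, which was 5.86 to 8.69 times higher within a library. The gap junction genes followed, with Gjb6 at 92.5 ± 22.9 against 380.3 ± 29.2 CPM and Gja1 at 107 ± 24.2 against 216 ± 22.7 CPM, or 3.17 to 5.03 and 1.82 to 2.50 times higher in the astrocyte cluster. Among the uptake genes the GABA transporter differed most. Slc6a11 was at 119.9 ± 28.3 CPM in stem cells and 349 ± 48.5 in the astrocyte cluster, Glul at 1976 ± 90.0 and 4016 ± 74.8, and Slc1a3 at 2337 ± 214 and 3575 ± 236. Astrocytes of the cluster were thus 2.54 to 3.11, 1.97 to 2.10 and 1.43 to 1.64 times higher for these 3 genes.

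**Figure D1:**
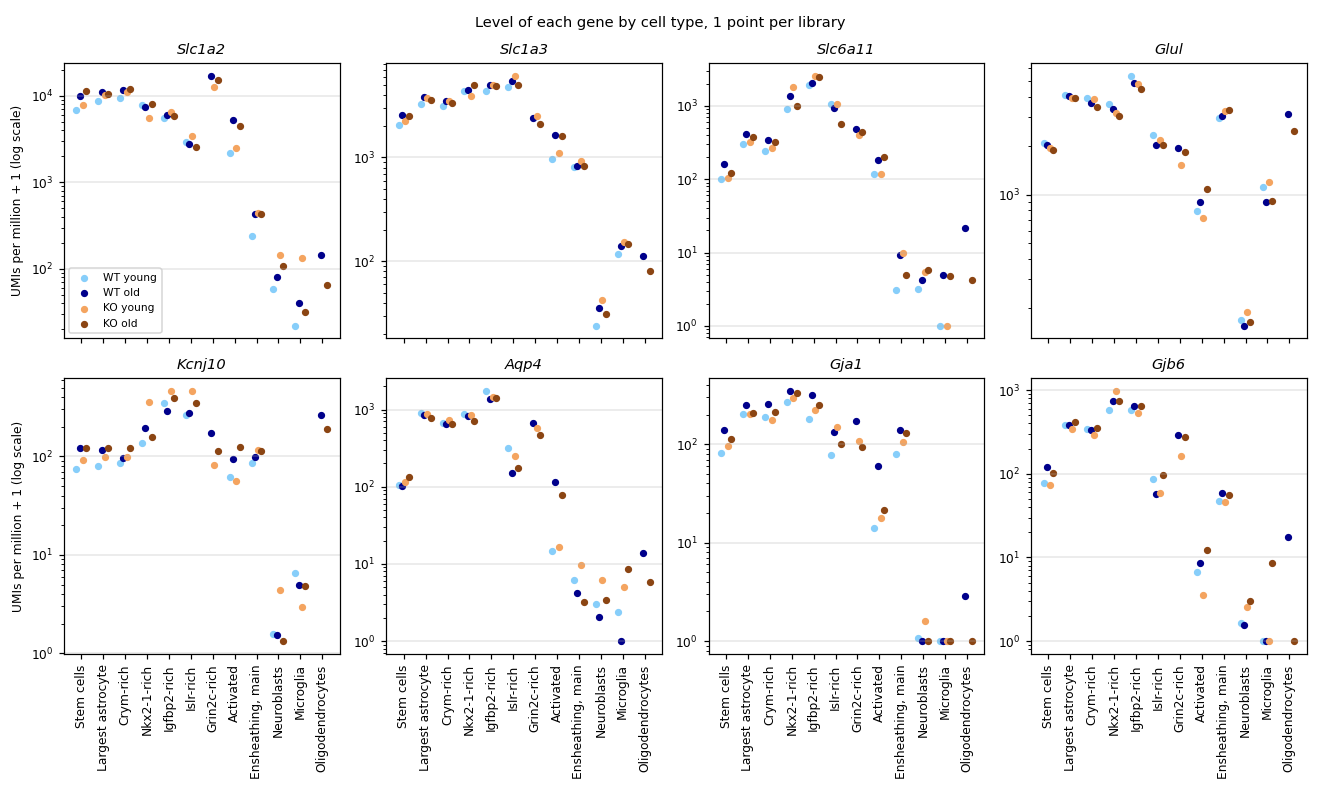
Level of each of the 8 genes (CPM + 1 on a log axis) by cell type, 1 point per library in the colour of its group. Aqp4 sits between 100.2 and 133 CPM in stem cells and near 853 in the largest astrocyte cluster, whereas Slc1a2 spans similar ranges in both.

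The astrocyte clusters did not share 1 profile. Igfbp2-rich cells, found in RoB, had the highest Slc6a11 (2255 ± 308 CPM), Aqp4 (1480.4 ± 183 CPM) and Glul (4891 ± 378 CPM) of the 18 types, each without overlap with the next type. Their Kcnj10 (374 ± 72.7 CPM) overlapped that of the Islr-rich cells (336 ± 90.8 CPM) and of the Nkx2-1-rich cells (135 to 358 CPM per library), and the Igfbp2- and Islr-rich cells lay above the oligodendrocytes (225 ± 48.9 CPM in 2 libraries). Slc1a2 in the Igfbp2-rich cells, at 5974 ± 396 CPM, lay below that of the largest and Crym-rich clusters.

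Nkx2-1-rich cells, of which 54.3% of those called came from the vSVZ, had the highest mean Gjb6 (765 ± 164 CPM) and Gja1 (310.3 ± 36.3 CPM), each overlapping the Igfbp2-rich cells (598 ± 55.0 and 241 ± 56.0 CPM). The Islr-rich cells combined the highest mean Slc1a3 (5331.5 ± 603 CPM, overlapping the Igfbp2-rich cells at 4796 ± 322 and the Nkx2-1-rich cells) with the lowest Slc1a2 of the astrocyte clusters (2898 ± 366 CPM) and with low Aqp4 (224 ± 78.0 CPM) and Gjb6 (74.4 ± 19.6 CPM). Crym-rich cells resembled the largest cluster, with Slc1a2 at 11031 ± 1143 CPM and Aqp4 at 674 ± 39.6 CPM. The Grin2c-rich cluster of 171 cells had the highest Slc1a2, 14945 ± 2190 CPM in 3 libraries, but its median depth was 1945 UMIs per cell.

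In activated cells the glutamate transporters, Glul and the connexins were lower than in stem cells, and the GABA transporter and the potassium channel were not. Their Slc1a2 was 3585.5 ± 1474 CPM, Slc1a3 1333 ± 347 CPM and Glul 873 ± 157 CPM, each below the stem cells of the same library. Gjb6 was at 6.80 ± 3.63 CPM and Gja1 at 27.5 ± 21.6 CPM, again below the stem cells of the same library. Slc6a11, at 154 ± 43.4 CPM, was 1.14 to 1.67 times the level of the stem cells of the same library. Kcnj10, at 83.7 ± 32.4 CPM, overlapped both the stem cells and the largest astrocyte cluster. The libraries differed widely in these cells. Slc1a2 was at 2198 CPM (95% counting interval 2116 to 2282) in WT young and 2476 (2398 to 2556) in KO young, against 5186 (4992 to 5385) in WT old and 4482.5 (4351 to 4617) in KO old. Aqp4 was at 13.8 and 15.5 CPM (17 and 24 UMIs) in the young libraries and 113 and 76.7 CPM (59 and 75 UMIs) in the old, WT first. Both old libraries thus lay above both young ones, but with 1 library per group and 41 to 150 cells each the difference was not tested, and intervals and floors here cover counting error only.

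Ensheathing glia were set apart by what they lacked. Aqp4 was at 4.79 ± 2.85 CPM and Slc6a11 at 5.79 ± 3.31 CPM in their main cluster, and Slc1a2 at 386 ± 100.0 CPM. Glul in contrast was at 3141 ± 185 CPM and Kcnj10 at 103 ± 14.6 CPM, within or near the astrocyte range, and Gja1 at 113 ± 26.9 CPM overlapped the stem cells.

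Free RNA bears on the low values. Near-empty barcodes of 5 to under 100 UMIs held Slc1a2 at 1177 CPM in WT young and 2635.5 to 2868.5 in the other libraries. Microglia, which should lack it, held Slc1a2 at 20.9 to 133 CPM, Kcnj10 at 3.83 CPM on average, and no Gja1 UMI in any library. Slc1a2 in ensheathing glia was above the microglial level in every library. Endothelial cells, however, held it at 387 ± 328 CPM (11.3 to 618 in 3 libraries), which overlapped the ensheathing glia. The part of free RNA in the Slc1a2 of ensheathing glia was not tested. Glul was at 1029.6 ± 146 CPM in microglia, with a UMI in 44.2 to 67.4% of these cells after thinning to equal depth, so it was not particular to glia of the astrocyte clusters.

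To ask whether age or interferon receptors changed the genes within stem cells, UMIs were summed per mouse and tested with edgeR over 6717 genes. Mice are separate animals, but their cells were assigned from few hashtag counts. Since an exact permutation test of 2 against 2 cannot go below p = 0.333, calls rest on a spread pooled over groups and genes. The part of cells given to the wrong mouse in this spread was not tested. With all mice, only Slc1a2 of the 8 passed in stem cells, and it rose with age in both genotypes. It stood at 7346 and 6542 CPM in WT young and 9439 and 9797 CPM in WT old mice, and at 7399 and 7386 CPM among the KO young and 10381 and 12030 CPM among the KO old. Every old mouse lay above every young mouse of either genotype. The change was +0.52 ± 0.10 (log2 ± SE, adjusted p = 0.00709) in WT and +0.64 ± 0.10 (adjusted p = 0.000594) in KO, where 1 of 8 genes passed in each and 1.18% and 0.700% of all genes tested did. The WT change missed the threshold without WT young replicate 2 (+0.43, adjusted p = 0.0902), whereas the KO change passed in 15 of 15 alternatives.

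The remaining uptake genes did not pass in stem cells. Slc6a11 was at 93.0 and 86.3 CPM in WT young and 119 and 190.2 CPM in WT old mice (+0.85 ± 0.24, adjusted p = 0.0825), and at 108 and 105 against 127.5 and 102 CPM in KO young and old mice. The old and young mice overlapped in KO and not in WT. Slc1a3 was at 2125.5 and 1947 CPM in WT young and 2412 and 2539 in WT old mice (+0.33 ± 0.11, adjusted p = 0.169). Glul, at 2069 and 2186 against 1850.3 and 2174 CPM, overlapped between the WT ages.

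Channels and connexins moved less clearly. Kcnj10 was at 85.7 and 71.3 CPM in WT young and 111 and 109 in WT old mice (+0.56 ± 0.27, adjusted p = 0.357), and Gja1 at 97.9 and 78.2 against 123 and 136 CPM (+0.65 ± 0.26, adjusted p = 0.251). Gjb6 was at 59.6 and 74.8 CPM in KO young against 100.2 and 119 in KO old mice (+0.73 ± 0.24, adjusted p = 0.219). In these 3 comparisons the 2 old mice were above the 2 young ones, but the model over all genes did not call them. The ages overlapped for Aqp4, at 120.0 and 103.5 CPM in WT young against 93.6 and 109 CPM in WT old mice, and at 119 and 119 CPM among KO young against 125 and 104.5 CPM among KO old mice. At an unadjusted p under 0.05 there were 5 of 8 genes in WT and 3 of 8 in KO, and the share of all genes under it is not given here. The median log2 change of the 8 was 0.53 in WT and 0.27 in KO against 0.0051 and 0.0067 over all genes tested.

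Between genotypes no member passed in stem cells. In young mice edgeR called 0 of 8, with 0 at an unadjusted p under 0.05 and 0 by DESeq2, while 0.462% of all genes passed. In old mice it called 0 of 8 (DESeq2 0), with 1 unadjusted, Slc1a2 at +0.22 ± 0.10 (adjusted p = 0.575), against 0.104% of genes. The age changes of the genotypes were compared by an interaction term, which called 0 of 8 (DESeq2 0), with Slc6a11 alone unadjusted (-0.70 ± 0.32, adjusted p = 0.543) and 0.119% of genes called. The stem cells rested on 33 and 33 cells in the WT old mice and 50 to 153 in the others, which limits the low genes most.

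**Figure D2:**
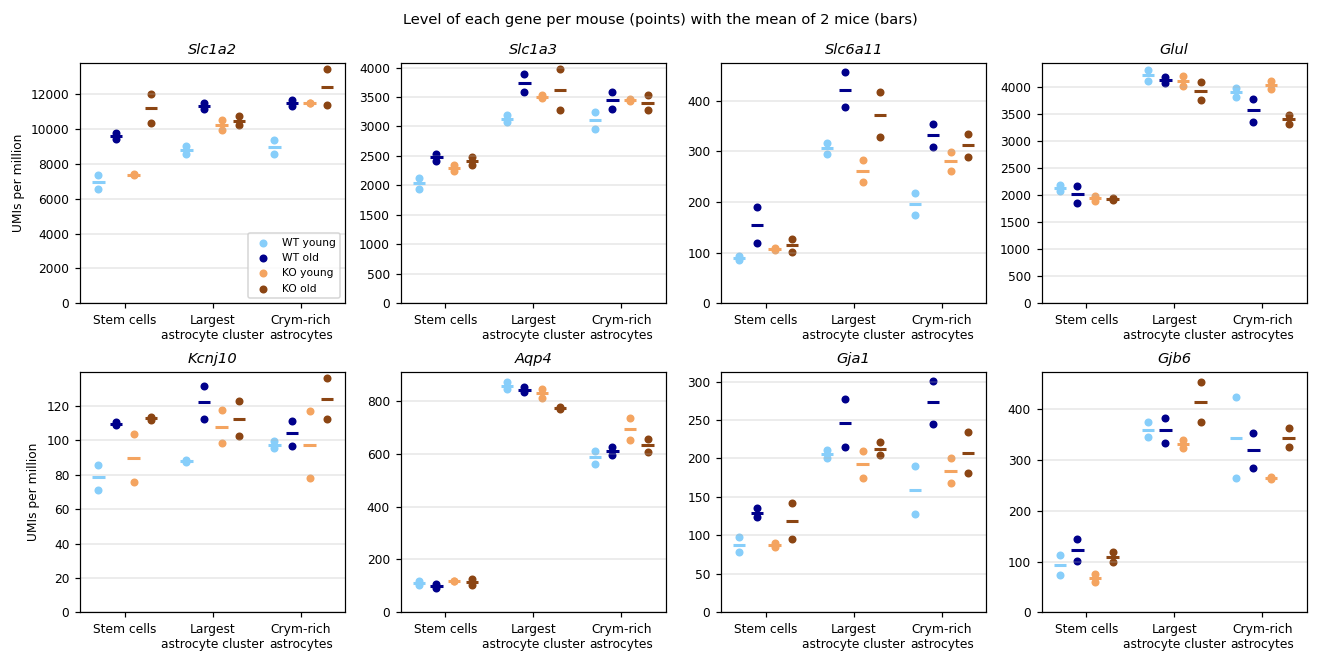
Level of each of the 8 genes (CPM) per mouse in stem cells, the largest astrocyte cluster and Crym-rich astrocytes, with points for the 2 mice of a group and bars for their mean. Slc1a2 in stem cells is higher in all 4 old mice (9439 to 12030 CPM) than in all 4 young mice (6542 to 7399 CPM).

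Levels of marker lists of other cells moved with age in the same stem cells. The summed oligodendrocyte list was 9.79 to 12.7 CPM in WT young against 46.6 to 55.3 CPM in WT old mice, and 33.3 to 54.1 CPM among KO young against 26.1 to 38.7 CPM among KO old mice, with 1 to 4 of its 5 genes detected. The summed neuroblast list was 532 to 607 CPM in WT young against 251 to 264 CPM in WT old mice, and 363 to 386 CPM among KO young against 316.5 to 320.7 CPM among KO old mice, with 2 to 7 of its 7 genes detected. The microglial list was 0 to 3.45 CPM in all mice. The summed astrocyte list was 20518 to 22004 CPM in WT young and 20514 to 21341 in WT old mice. The share of stem cells with eYFP was also lower in the old libraries, as given above. The part of these lists and of that share in the Slc1a2 change was not tested. No cluster rich in Thbs4 and Ecel1 was found with coarser clustering (Leiden resolution 0.5).

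The same question was put to the Crym-rich astrocytes, over 7547 genes. Here 2 of the 4 uptake genes passed in WT and no member passed in KO. Slc1a2 was at 8569.5 and 9384 CPM in WT young and 11651 and 11346 in WT old mice (+0.33 ± 0.08, adjusted p = 0.0231). Slc6a11 was at 175 and 218 CPM in WT young and 309 and 354 in WT old mice (+0.74 ± 0.19, adjusted p = 0.0285). The old mice did not overlap the young for either gene. Slc1a3 (+0.13, adjusted p = 0.587) and Glul (-0.15, adjusted p = 0.467) did not pass in WT, although Glul was at 3809 to 3983 CPM in young and 3353 to 3771 CPM in old mice. The 2 called were 2 of 8 genes, while 1.50% of all genes passed. Gja1, at 191 and 128 against 301 and 245 CPM, just missed the threshold (+0.75 ± 0.22, adjusted p = 0.0520).

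In KO mice with age, edgeR called 0 of 8 genes in Crym-rich astrocytes (2 unadjusted, Glul and Gjb6, and 0 by DESeq2), and 0.371% of all genes passed. Slc1a2 was at 11514 and 11486 CPM in KO young against 11402 and 13452 in KO old mice, so the KO young mice lay between the WT old mice. In young mice it was the gene that differed by genotype (KO minus WT +0.37 ± 0.08, adjusted p = 0.00733), 1 of 8 against 0.967% of all genes. In old mice 0 of 8 were called (1 unadjusted, Gja1 at -0.34 ± 0.15, and 0 by DESeq2) against 0.0928%. For the interaction 0 of 8 were called (3 unadjusted, Gja1, Gjb6 and Slc6a11, and 0 by DESeq2) against 0.451%, so a difference between the genotypes in the age change was not shown.

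These calls rested on few animals and cells. WT young mice had 31 and 36 Crym-rich cells. Without a single mouse between 0 and 3 of the 8 genes were called for age in WT and 0 to 1 for genotype in young mice, and with strict hashtag calls (posterior of at least 0.95) 0 in each. In the largest astrocyte cluster, fitted separately, Slc1a2 again rose with age in WT, from 8554 and 9058 to 11504 and 11173 CPM (+0.33 ± 0.08, adjusted p = 0.0100). There Slc6a11 missed the threshold in WT (+0.42, adjusted p = 0.0753) and passed in KO (+0.50 ± 0.12, adjusted p = 0.0263), and Slc1a2 in young mice did not differ past the threshold by genotype (+0.24, adjusted p = 0.211). The oligodendrocyte list in Crym-rich cells was 9.46 to 10.6 CPM in WT young and 74.3 to 77.7 in WT old mice, and its part in the result was not tested.

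Pooling all stem cells and astrocytes of the vSVZ gave a larger set of changes, in a class whose share of stem cells also differed with age. Over 10466 genes, 7 of 8 members rose with age in WT, when 16.3% of all genes changed, and 4 of 8 rose in KO, when 4.41% did. Slc6a11 was the gene with the largest change of the 8 in both, from 164 and 167 to 331 and 392 CPM in WT (+1.14 ± 0.13, adjusted p = 1.02e-07) and from 222 and 205 to 304 and 383.5 CPM in KO (+0.72 ± 0.11, adjusted p = 0.000133). Slc1a2 went from 8159 and 7914 to 11340 and 11223 CPM in WT (+0.50 ± 0.07, adjusted p = 3.45e-06) and from 9938 and 9713 to 10810 and 12068 in KO (+0.25 ± 0.07, adjusted p = 0.0282). In none of these comparisons did the ages overlap.

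The connexins rose in both genotypes in this pooled class. Gja1 went from 154 and 128.5 to 244 and 236 CPM in WT (+0.79 ± 0.12, adjusted p = 1.12e-05) and from 160.0 and 152.5 to 199 and 209 in KO (+0.41 ± 0.10, adjusted p = 0.0154). Gjb6 went from 233 and 193 to 262 and 350 CPM in WT (+0.57 ± 0.13, adjusted p = 0.00211) and from 220.5 and 219.6 to 320.1 and 379 in KO (+0.69 ± 0.12, adjusted p = 0.000275). Aqp4 rose in WT, from 425 and 421 to 554 and 659 CPM (+0.54 ± 0.10, adjusted p = 0.00019), as did Slc1a3 (+0.51 ± 0.08, adjusted p = 1.75e-05) and Kcnj10 (+0.48 ± 0.14, adjusted p = 0.0156), and these 3 did not pass in KO. Glul did not pass in WT (+0.20 ± 0.08, adjusted p = 0.0781) or KO.

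Stem cells made up 46.6 to 52.1% of the class in WT young mice and 11.3 to 22% in WT old, and 37.4 to 38.0% in KO young and 15.6 to 16.9% in KO old. When they were left out (9424 genes), 2 of 8 passed in WT, against 4.54% of all genes, and 1 of 8 in KO, against 1.77%. Slc6a11 remained in both, at 225 and 271 against 388.5 and 419 CPM in WT (+0.63, adjusted p = 0.0052) and at 280.0 and 263 against 341 and 446 CPM in KO (+0.52, adjusted p = 0.011), and Slc1a2 remained in WT (+0.30, adjusted p = 0.0139). The direction of Aqp4 with age in WT turned, from +0.54 to -0.11 (not past the threshold), with values of 687 and 775 CPM in young and 679 and 733 in old mice. Glul, not called in either fit, went from +0.20 to -0.16 in WT (4240 and 3964 CPM in young, 3688 and 3944 in old mice) and was at 3949 and 4024 CPM in young and 3668 and 3119 in old KO mice (-0.25, adjusted p = 0.0849). Slc1a3, Kcnj10 and Gja1 lost their calls in WT (+0.23, +0.27 and +0.38, with adjusted p-values of 0.104, 0.436 and 0.0841), though the old mice still lay above the young. Gja1, for example, was at 189 to 197 CPM in young and 249.5 to 277 CPM in old WT mice. Gjb6 lost its WT call as well, and there the ages overlapped, at 331 and 332 CPM in young and 305.5 and 377 CPM in old mice. In KO the calls of Slc1a2, Gja1 and Gjb6 were lost, though for Gja1 and Gjb6 the old mice still lay above the young. The share of Nkx2-1-rich cells also differed, at 10.7 to 21.5% in KO old, 0.667 to 9.97% in WT old and 0 to 1.90% in young mice. Leaving out the stem cells also lowered the cell numbers, in WT young mice from 148 and 263 to 79 and 126. The part of cell shares and cell numbers in the lost calls was not tested.

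**Figure D3:**
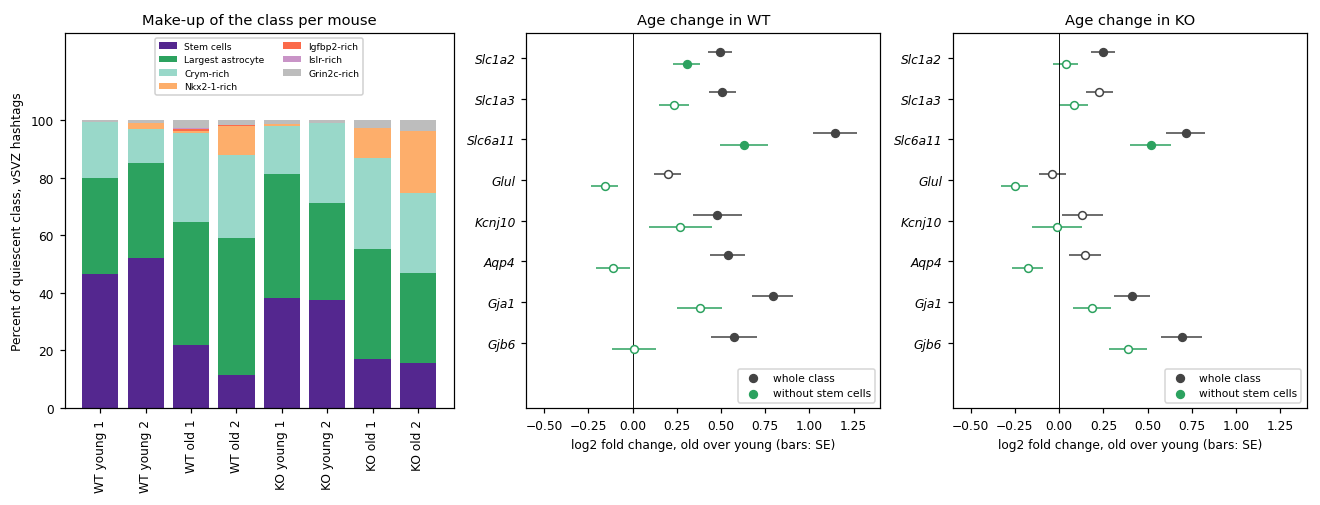
Left, percent of the pooled vSVZ stem cell and astrocyte class made up by each cluster per mouse, and right, log2 change with age of each gene in WT and KO with (grey) and without (green) the stem cells, as edgeR estimates with 1 SE, filled where the adjusted p is under 0.05. Aqp4 in WT lies at +0.54 with the stem cells and at -0.11 without them, while Slc6a11 stays above 0 in all fits.

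By genotype the pooled class of young mice had 3 of 8 members higher in KO, against 3.09% of all genes, namely Slc1a2 (+0.31 ± 0.07, adjusted p = 0.0066), Slc1a3 (+0.30 ± 0.08, adjusted p = 0.0247) and Aqp4 (+0.36 ± 0.10, adjusted p = 0.0337). All 3 missed the threshold when any 1 of the 4 young mice was left out, with adjusted p-values from 0.0550 to 0.364. The share of stem cells also differed, at 46.6 to 52.1% in WT young and 37.4 to 38.0% in KO young mice. When the stem cells were left out, 1 of 8 still passed. Aqp4 was then at 687 and 775 CPM in WT young and 807 and 721 CPM in KO young mice, which overlapped. The part of cell shares in these calls was not tested. In old mice edgeR called 0 of 8, with 0 unadjusted and 0 by DESeq2, against 0.268%. For the interaction 0 of 8 were called (6 unadjusted and 0 by DESeq2) against 1.63% of genes. Aqp4 came nearest to the threshold there (-0.39 ± 0.13, adjusted p = 0.143).

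Ensheathing glia were tested over 10084 genes, of which Aqp4 was not 1 because it fell below the count filter. In WT 2 of the 7 members tested rose with age, against 2.02% of all genes. Slc1a2 was at 213 and 157 CPM in WT young and 389 and 386 in WT old mice (+1.05 ± 0.14, adjusted p = 0.00425), from 71 to 87 UMIs per young mouse. Gja1 was at 85.7 and 57.4 CPM in WT young and 139.6 and 128 in WT old mice (+0.88 ± 0.21, adjusted p = 0.0386). The ages did not overlap, but both genes missed the threshold without WT young replicate 2 or without either WT old mouse. The ages overlapped for Glul, at 2585 and 3088 against 3028 and 2769 CPM.

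In KO ensheathing glia Slc1a2 was at 278.5 and 249 CPM in young and 372 and 339 in old mice (+0.44 ± 0.12, adjusted p = 0.135). It was the 1 member with an unadjusted p under 0.05 among 0 of 7 called (DESeq2 0), against 0.278% of all genes. For genotype in young mice edgeR called 0 of 7 (3 unadjusted, Glul, Kcnj10 and Slc1a2, and 0 by DESeq2) against 0.575%, and in old mice 0 of 7 (0 unadjusted, 0 by DESeq2) against 0.387%. The interaction called 0 of 7 members (2 unadjusted, Slc1a2 at -0.61 ± 0.19 and Gja1 at -0.57 ± 0.27, and 0 by DESeq2) and 0% of all genes.

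Free RNA and other cells moved with the Slc1a2 value. Near-empty barcodes held it at 1177 CPM in WT young and 2635.5 in WT old, a ratio of the same direction as the change in ensheathing glia. The summed astrocyte list in ensheathing glia went the other way, at 4276 to 4374 CPM in WT young and 3760.5 to 3802 in WT old mice, and the neuroblast list was at 85.7 to 821 CPM in WT young and 13.5 to 15.8 in WT old. Microglia held Slc1a2 at 20.9 CPM in WT young and 39.1 in WT old. Their part in the result was not tested.

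The clearest differences of the 8 genes lay between tissues. Astrocytes other than stem cells were compared between RoB and vSVZ within each of 8 mice, with the tissue read from the hashtag and both tissues of a mouse in 1 reaction. Over 7759 genes 6 of 8 members passed, while 11.0% of all genes did. Slc6a11 had a median of 310.5 CPM (225 to 446) in vSVZ and 1108 CPM (869 to 1352) in RoB (+1.72 ± 0.08, adjusted p = 8.47e-24). Kcnj10 had a median of 106 CPM (86.2 to 119) in vSVZ and 225 CPM (198 to 261) in RoB (+1.02 ± 0.09, adjusted p = 3.38e-14). For both genes the lowest RoB value lay above the highest vSVZ value.

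Slc1a2 went the other way, with a median of 11068 CPM (8832 to 12027) in vSVZ and 6857 CPM (5153 to 7735) in RoB (-0.73 ± 0.05, adjusted p = 6.93e-18), lower in 8 of 8 mice and without overlap. Thus the pair of glutamate transporters differed in direction, since Slc1a3 was higher in RoB, with medians of 3474.5 and 4144 CPM (+0.23 ± 0.05, adjusted p = 0.000717). Gjb6, with medians of 332 and 457 CPM (+0.41 ± 0.06, adjusted p = 1.89e-06), and Aqp4, with medians of 706 and 869.6 CPM (+0.29 ± 0.06, adjusted p = 0.000584), were also higher in RoB in 8 of 8 mice. Glul was higher in 5 of 8 mice and Gja1 in 4 of 8, and neither passed. Sort gates differed between the tissues, the vSVZ gate taking GLAST-positive cells.

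**Figure D4:**
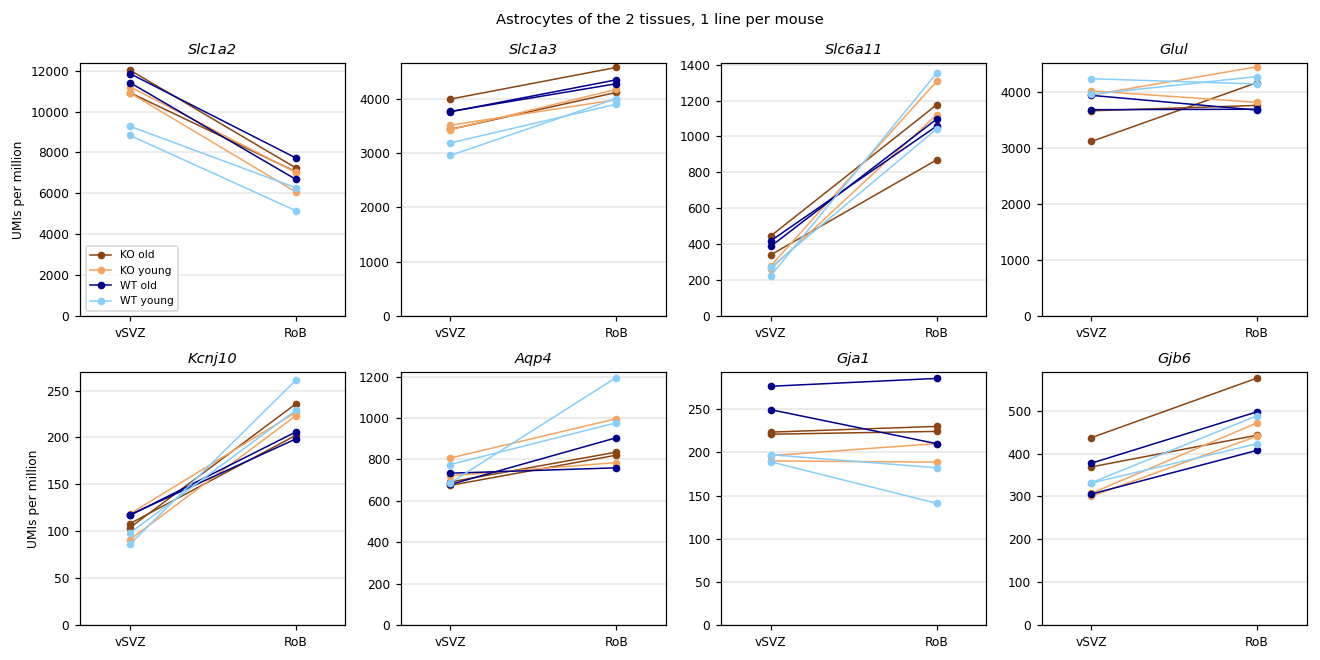
Level of each gene (CPM) in astrocytes of vSVZ and RoB, 1 line per mouse joining its tissues. All 8 lines rise for Slc6a11, Kcnj10, Slc1a3, Aqp4 and Gjb6 and all 8 fall for Slc1a2.

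The astrocyte clusters were not spread evenly over the tissues. Igfbp2-rich cells made up 11.9 to 36.4% and Islr-rich cells 7.02 to 27.7% of RoB astrocytes other than stem cells per mouse, and each at most 0.855% of those of the vSVZ. Within the largest cluster alone (7 mice, 4374 genes), 2 of 8 passed against 2.38% of all genes. Slc6a11 was then higher in RoB by +0.52 (adjusted p = 0.000582) and Gjb6 passed as well (adjusted p = 0.00927), each in 7 of 7 mice. Slc1a2 was lower in RoB in 7 of 7 mice but by -0.21 (adjusted p = 0.0971), and Aqp4 was higher in 7 of 7 (+0.21, adjusted p = 0.191). Kcnj10, at +1.02 over all astrocytes, was here at +0.46 (adjusted p = 0.168) and higher in 6 of 7 mice, with a median difference of 0.17 (-0.30 to 1.37). Slc1a3 was higher in 4 of 7 mice (+0.08, adjusted p = 0.752). The summed ensheathing glia list in astrocytes was 665 to 1618 CPM in RoB and 254 to 437 in vSVZ, and its part in these differences was not tested.

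Other genes of the same functions, 63 in 4 lists, were set beside the 8. Of those at 50 CPM or more in stem cells or the largest astrocyte cluster, 8 of 10 genes of uptake and glutamine metabolism were lower in stem cells, as were 7 of 12 ion channels and pumps, 4 of 6 water and endfoot genes and both junction genes. The share of all genes at that level that were lower in stem cells is not given here, so these counts are a description. Tests called few of them within a cluster. In stem cells 1 of 40 passed with age in WT (1.18% of all genes did), Atp1b2, a sodium pump subunit, at 382 and 330.2 CPM in young and 553 and 500.7 in old mice (+0.62 ± 0.15, adjusted p = 0.0343). It passed in 2 of 8 fits that left out a mouse. The other 4 comparisons of stem cells called 0 of 40 by edgeR and by DESeq2, while edgeR called 0.104 to 0.700% of all genes. Of the 40, 3 to 12 had an unadjusted p under 0.05, and the share of all genes under it is not given here.

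In Crym-rich astrocytes 4 of 42 wider genes passed with age in WT, against 1.50% of all genes, and 3 with genotype in young mice, against 0.967%. Slc38a3, a glutamine transporter, was in both, at 116.5 and 147 CPM in WT young and 272 and 256 in WT old mice (+0.97, adjusted p = 0.00484), and +1.01 higher in KO young than WT young (adjusted p = 0.00333). Its WT age change passed in 16 of 17 alternatives. Glud1, glutamate dehydrogenase, fell with age in WT (-0.41, adjusted p = 0.0452), passing in 10 of 17 alternatives. With age in KO 0 of 42 passed, with 6 unadjusted and 0 by DESeq2, against 0.371% of all genes.

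In the tissue comparison 19 of 43 wider genes passed, 10 higher and 9 lower in RoB, while 11.0% of all genes did. The largest were Slc38a1, a glutamine transporter (+2.55), Slc25a18, a mitochondrial glutamate carrier (+2.14), Kcnj16, the partner subunit of Kir4.1 (+1.70), and Kcnk2, a leak potassium channel (+1.20). Atp1b1, a sodium pump subunit, was lower (-0.87). Slc25a18, Slc38a1, Kcnj16 and Kcnk2 passed in every alternative in which they were tested.

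Genes whose pattern was most like each member were sought over 65 values of 18 cell types and 4 libraries, by Pearson's r of log2(CPM + 5), as a description since values share libraries and depth. Slc1a2 was most like Ntsr2 (r = 0.968) and Bcan (0.963), Slc1a3 like Plpp3 (0.953), and Slc6a11 like Itih3 (0.945). Glul was most like Acadl (0.931) and Kcnj10 like Hepacam (0.932). Aqp4 was most like Slc7a10 (0.967), Gja1 like Fam107a (0.967) and Gjb6 like 2900052N01Rik (0.966). Within the 27 values of the stem cell and astrocyte clusters several of these likenesses were far lower, with r = 0.065 for Slc1a2 and Ntsr2 and -0.056 for Kcnj10 and Hepacam, while that of Aqp4 and Slc7a10 was 0.933. In these values Slc1a2 ran opposite to Slc1a3 (r = -0.70) and to Kcnj10 (-0.70), whereas Aqp4 went with Gjb6 (0.88), Gja1 with Gjb6 (0.85) and Slc6a11 with Kcnj10 (0.83).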

How the data were processed

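Single cells of 4 groups were sequenced as 4 expression and 4 hashtag libraries (10x 3′ v3.1); 1 further sample with no group in the labels was not used. The authors deposited unnormalised UMI counts per gene and barcode and hashtag counts, made with an index-hopping filter, kallisto and bustools and CITE-seq-Count against GRCm38, per the submitters' processing notes and methods (Scanpy 1.6.0 downstream). Whether unspliced counts were included is not given in the sources used here. Cells were kept at 1000 to 20000 UMIs, 100 to 6000 genes and less than 10% of UMIs from mitochondrial genes, predicted doublets removed (27 to 177 per library), and mice called from hashtags. Cells were clustered (scanpy 1.11.5, 2000 variable genes, 50 components, 15 neighbours, Leiden resolution 1), leaving out the 8 genes, the wider lists, interferon-response, mitochondrial and transgene features. Sums of at least 10 cells per mouse were tested with edgeR 4.0.16 (quasi-likelihood, filterByExpr, TMM, group as the only term, mouse as block for tissue) in R 4.3.3, with Benjamini-Hochberg adjustment over all genes tested and a threshold of 0.05; DESeq2 1.42.0 was an alternative. Scripts were tested on simulated counts. The 8 genes are named everywhere; of the wider lists, up to 5 called genes per comparison with the largest fold, and for each member the genes most like it. Members and lists were chosen with earlier results of these data known. Leaving out each mouse, other normalisations, filters, hashtag calls and clusterings were tried; the largest astrocyte cluster as alternative was chosen after seeing the data.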

Additional observations from a re-analysis of the deposited data

Results flagged for a closer look

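The Slc1a3 difference between RoB and vSVZ astrocytes of WT young replicate 1 was 0.44 (log2), the highest of 8 mice. Its gap to the next mouse (0.29) was 0.573 of the whole range, above Dixon's 95% critical value for 8 values. Chance flags about 1 in 20 such groups, and 8 genes were examined this way. The level in that mouse was 2956 CPM in vSVZ, the lowest of the 8, and 4003 CPM in RoB.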

How the results depend on the processing

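No paired analysis was possible for age and genotype because the groups share no animal, whatever the replicate numbers; the tissue comparison had the mouse as block throughout. Of 453 alternatives to the 27 called changes, 374 kept direction and call, 76 kept direction without the call and 3 reversed, all with age in WT in the pooled vSVZ class: Aqp4 to -0.11 and Gjb6 to -0.014 at Leiden resolution 0.5, and Aqp4 to -0.11 without the Thbs4- and Ecel1-rich clusters. Leaving out 1 mouse gave, for members called with age in WT, 0 to 2 in stem cells, 0 to 3 in Crym-rich astrocytes, 5 to 8 in the vSVZ class and 0 to 2 in ensheathing glia. With age in KO it gave 1 to 1 in stem cells, 2 to 5 in the vSVZ class and 0 to 1 in ensheathing glia. For genotype in young mice it gave 0 to 1 in Crym-rich astrocytes and 0 to 3 in the vSVZ class, for the interaction in the vSVZ class 0 to 2, and for tissue 6 to 6. Strict hashtag calls gave 0 for age in WT and for genotype in young mice in Crym-rich astrocytes, and in the vSVZ class 2 with age in KO and 1 with genotype in young mice. The largest cluster in place of the Crym-rich one gave 1 with age in WT, 1 with age in KO and 0 with genotype in young mice. Leiden resolution 0.5 gave 2 with age in KO for Crym-rich astrocytes and 2, 1 and 1 in the vSVZ class with age in WT, age in KO and genotype in young mice, and so did that class without the Thbs4- and Ecel1-rich clusters (2, 1 and 1). DESeq2 gave 2 with age in KO in the vSVZ class. Without a low-count filter ensheathing glia had 1 with age in KO and 1 with genotype in young mice. The largest cluster alone gave 2 for tissue. Fewer cells entered under the strict calls, in the vSVZ class under the other cluster choices named, and in the largest cluster alone for tissue. In place of the Crym-rich cells (31 to 118 per mouse) more entered at Leiden resolution 0.5 (104 to 310) and from the largest cluster (71 to 166). These are then partly other cells, and the cause of the changed calls was not tested. Depth limits Aqp4, Gja1 and Gjb6 in activated cells and ensheathing glia, and the WT old stem cells, with 33 cells per mouse.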

Other observations

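Outside the 8 genes, Kcnn2, a small-conductance calcium-activated potassium channel, differed between the genotypes of old mice in several glia. In Crym-rich astrocytes it was at 104 and 118.5 CPM in WT old and 38.4 and 31.6 CPM in KO old mice (-1.63 ± 0.25, edgeR adjusted p = 2.42e-05), and at 58.3 and 56.8 CPM in WT young and 50.01 and 71.0 CPM in KO young mice. The call held in 8 of 8 fits that left out a mouse and in 15 of 17 alternatives. The change with age differed between genotypes there (-1.76, adjusted p = 0.0277), but this passed in 3 of 8 such fits. In ensheathing glia Kcnn2 was at 50.3 and 62.4 CPM in WT old and 19.5 and 22.5 in KO old mice (-1.33, adjusted p = 0.00223), passing in 7 of 8 fits, with WT old replicate 2 as the exception. Genotype and reaction cannot be told apart, and KO old mice were older than WT old mice.

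In ensheathing glia Aqp1, the water channel aquaporin-1, was at 286 and 283 CPM in WT young and 519.8 and 467 CPM in WT old mice (+0.76, adjusted p = 0.00653), and was +0.67 higher in KO young than in WT young mice (adjusted p = 0.0164), a call kept in 4 of 8 fits that left out a mouse. The age change passed in 5 of 8 fits that left out a mouse, being lost without WT old replicate 1, WT old replicate 2 or WT young replicate 2. In the pooled vSVZ class Slc38a3 rose with age in WT (+1.15) and was higher in KO young than in WT young mice (+0.88). Its age change differed between genotypes (-0.92, adjusted p = 0.000885), in 8 of 8 fits that left out a mouse and in 16 of 17 alternatives.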
